A study of Mus musculus with 10 samples.

Results

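The 8 genes Slc2a2, Gckr, Khk, Pfkl, Pfkfb1, Pfkfb3, Pklr and Ldha control how glucose and fructose enter glycolysis in the liver, and were followed across all libraries. They were taken by gene symbol from the 46071 rows of the deposited count table, and all 8 were found and passed the filter on low counts. Liver RNA of mouse offspring had been sequenced in 10 libraries. The study asked whether a parent that lacks the insulin receptor in its hepatocytes alters the liver transcriptome of its young. Controls (libraries 1 to 4) had a father and a mother that both carried loxP-flanked insulin receptor alleles (IRlox/lox) without Albumin-Cre, from control parents bred with one another over 4 generations. FL offspring (libraries 5 to 7) had a LIRKO father (IRlox/lox with 1 copy of Albumin-Cre, which removes the receptor where the albumin promoter is active) and a control mother. For ML offspring (libraries 8 to 10) the cross was reversed, with the mother as the LIRKO parent and a control male. The floxed alleles are thus shared by the parents of every group. The offspring's own Cre status, sex, age, litter and diet are not given in the labels, nor is it said there that every library comes from its own animal. The p-values therefore measure only the spread among these libraries.

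Glucose enters the hepatocyte through the facilitative transporter encoded by Slc2a2 (GLUT2). It is then phosphorylated, a step that the regulatory protein encoded by Gckr restrains. Fructose takes another way in: Khk phosphorylates it, and the product both relieves the restraint by Gckr and passes below the phosphofructokinase step. Pfkl is the liver subunit of that rate-limiting kinase. Pfkfb1 and Pfkfb3 are enzymes with a kinase and a phosphatase domain that set the level of its allosteric activator, Pfkfb1 being the classical liver form and Pfkfb3 a stress- and hypoxia-responsive form dominated by its kinase. Pklr makes pyruvate at the last step, and Ldha interconverts pyruvate and lactate. Insulin and the glucose-sensing factor MLXIPL (ChREBP) are the known inducers of the liver form of Pklr, and HIF1 is a known inducer of Pfkfb3 and Ldha.

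The DNA just before the transcription starts can carry letters that MLXIPL or HIF1 read. RefSeq (GRCm38.p6) gives 14 start windows for the 8 genes, and the 250 bases before each start were searched on both strands. The stretches printed hold such letters, are cut back to bases outside every GENCODE exon, and are written 5′ to 3′ in the gene's own direction. In Pklr, capitals mark the carbohydrate response element CACGNNNNNNNNNCGTG, a pair of E-box-like ends with 9 free bases between them, 170 to 154 bases before the downstream start, which serves the liver form. In Ldha and Pfkfb3, capitals mark ACGTG or its complement, the core of a hypoxia response element, which every CACGTG E-box also contains.
Pklr, chr3:89136373-89136571, plus strand: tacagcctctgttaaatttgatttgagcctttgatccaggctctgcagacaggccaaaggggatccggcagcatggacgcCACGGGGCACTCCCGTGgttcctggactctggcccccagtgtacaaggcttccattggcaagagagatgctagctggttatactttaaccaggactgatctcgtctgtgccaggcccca
Ldha, chr7:46845554-46845803, plus strand: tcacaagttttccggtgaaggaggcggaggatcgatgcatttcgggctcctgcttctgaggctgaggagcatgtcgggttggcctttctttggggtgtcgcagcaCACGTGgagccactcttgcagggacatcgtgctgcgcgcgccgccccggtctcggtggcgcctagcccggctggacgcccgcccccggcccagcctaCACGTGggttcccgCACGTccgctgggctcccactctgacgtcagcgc
Pfkfb3, chr2:11502102-11502340, minus strand: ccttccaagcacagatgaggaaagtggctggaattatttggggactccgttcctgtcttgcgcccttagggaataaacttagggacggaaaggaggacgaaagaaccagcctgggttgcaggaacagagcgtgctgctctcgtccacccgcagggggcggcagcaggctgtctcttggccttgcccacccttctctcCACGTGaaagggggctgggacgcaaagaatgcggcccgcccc
The carbohydrate response element was found in 72 of 32851 RefSeq windows (0.219%), and among the 14 windows of the 8 genes in that of Pklr alone. CACGTG was in 6.02% of all windows and in 3 of the 14. These were Ldha, at 145 to 140 and 48 to 43 bases before the start, Pfkfb3 at 53 to 48 and Khk at 71 to 66. ACGTG was in 16.6% of all windows and in 4 of the 14, the fourth being the upstream start of Pfkfb3. A match describes the letters only, and no binding was measured. Only exact matches in these windows were sought, so a gene without one may still carry such an element elsewhere or in another form.

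Library depth and 2 unusual libraries bear on every value. Control 1 was the shallowest at 18655506 counts, controls 2 to 4 had 37292273 to 39379940, FL libraries 23192571 to 31116742, and ML libraries 26614915 to 34568205. Control 1 and above all ML 9 held more of short transcripts: genes with under 1000 bases of exon had a median log2 deviation from their mean over libraries of 1.67 for ML 9, 0.52 for control 1, 0.34 for ML 10 and -0.56 to -0.10 for the 7 others. ML 9 also held skeletal muscle transcripts: Ckm had 1370 counts there and 0 in each of the 9 other libraries, and Mylpf 1874 against 11 to 31. By transcript length ML 10 was closer to control 1 than to the 7 others, and it stays in the comparisons that leave out control 1 and ML 9. For the 8 genes, the plot of fold changes gives every comparison with and without control 1 and ML 9, and the text gives the value without them where it moves by over 1.5 times or turns direction. Summed hepatocyte markers were the most abundant of the 12 cell type lists in every group, with 62100 to 83400 CPM (read counts scaled to a common library size, with TMM factors) for controls, 57500 to 65200 for FL and 53500 to 95200 for ML. Insr, the gene deleted in the LIRKO parents, had 54.4, 28.2 and 55.2 CPM in ML, below all controls at 62.9 to 128, and 77.6, 59.3 and 59.4 in FL. ML lay wholly below control in 2.86% of all genes. Insr has 13746 bases of exon. Genes of 8000 bases and more had a median log2 deviation of -0.87 in ML 9 from the libraries other than it and control 1. Insr passed in none of the comparisons, and a count over the whole gene does not show whether the floxed part is present.

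Per kilobase of exon, the 8 genes covered a wide range of levels. Khk and Ldha were the most abundant, at 208 to 1617 and 165 to 289 CPM per kb over the 10 libraries. Their ranges overlapped, and Khk exceeded Ldha in 8 of 10 libraries. Pklr (19.2 to 74.7 CPM per kb), Slc2a2 (20.1 to 69.5) and Gckr (24.7 to 60.8) formed a middle tier whose ranges overlapped one another and lay wholly below that of Ldha. Pfkfb1 (3.97 to 12.6 CPM per kb), Pfkl (2.45 to 6.38) and Pfkfb3 (0.638 to 12.0) were lowest. Gckr exceeded Pfkfb1 in all 10 libraries, while Pfkl and Pfkfb3 could not be ordered, Pfkl being higher in 6 of 10. Counts behind these values ran from 74 (Pfkfb3 in ML 9) to 44568 (Khk in ML 9).

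**Figure D1:**
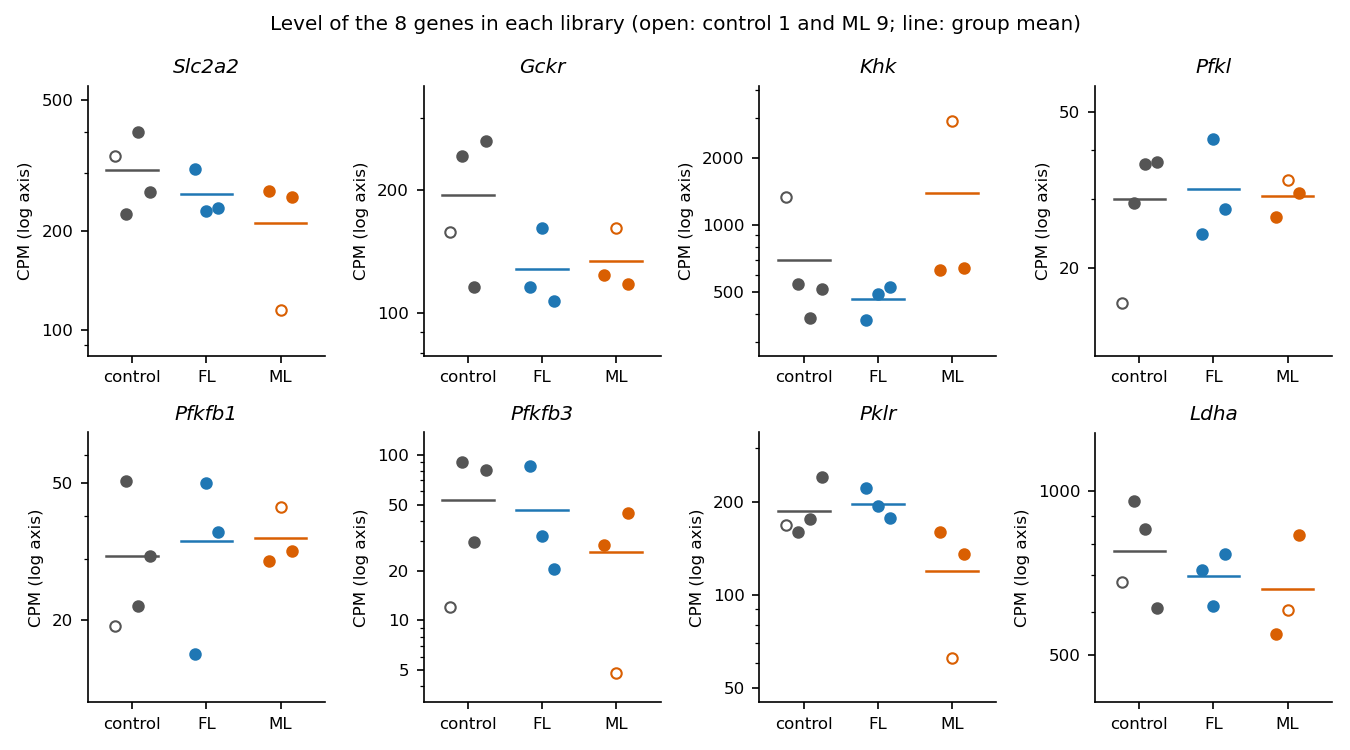
Level of each of the 8 genes in each library, in TMM-scaled CPM on log axes that differ between panels. Each point is a library, open points are control 1 and ML 9, and lines are group means. Khk is highest and Pfkfb3, Pklr and Slc2a2 are lowest in ML 9, and the 3 ML points of Pklr lie below all control and FL points.

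No member passed in any of the 3 comparisons at an edgeR adjusted p under 0.05. Over all 14820 genes tested, 0.0135% passed between FL and control, 0% between ML and control and 0.00675% between FL and ML. At an unadjusted p under 0.05 the members gave 0 in FL against control, 0 in ML against control and 1 (Khk) in FL against ML, where 3.53%, 16.1% and 20% of all genes lay under it. DESeq2 also called 0 members in each comparison, against 0.351%, 0.31% and 1.67% of all genes. It gave no adjusted p for Pfkl, Pfkfb1 and Pfkfb3 in FL against ML. The control and FL libraries did not overlap for 0 members, and for 5.71% of all genes (2.79% with FL higher and 2.92% with FL lower). Control and ML libraries were separate for 1 member (Pklr) and for 5.03% of all genes (2.17% with ML higher and 2.86% lower). FL and ML were separate for 2 members (Khk and Pklr) and for 31.7% of all genes. The median log2 fold change of the 8 was -0.18 in FL against control, -0.38 in ML against control and 0.07 in FL against ML, beside medians of -0.05, -0.05 and 0.04 over all genes. The comparisons with control share the same 4 control libraries and are given side by side only. In whole liver, fewer cells of a type and less RNA per cell cannot be told apart.

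**Figure D2:**
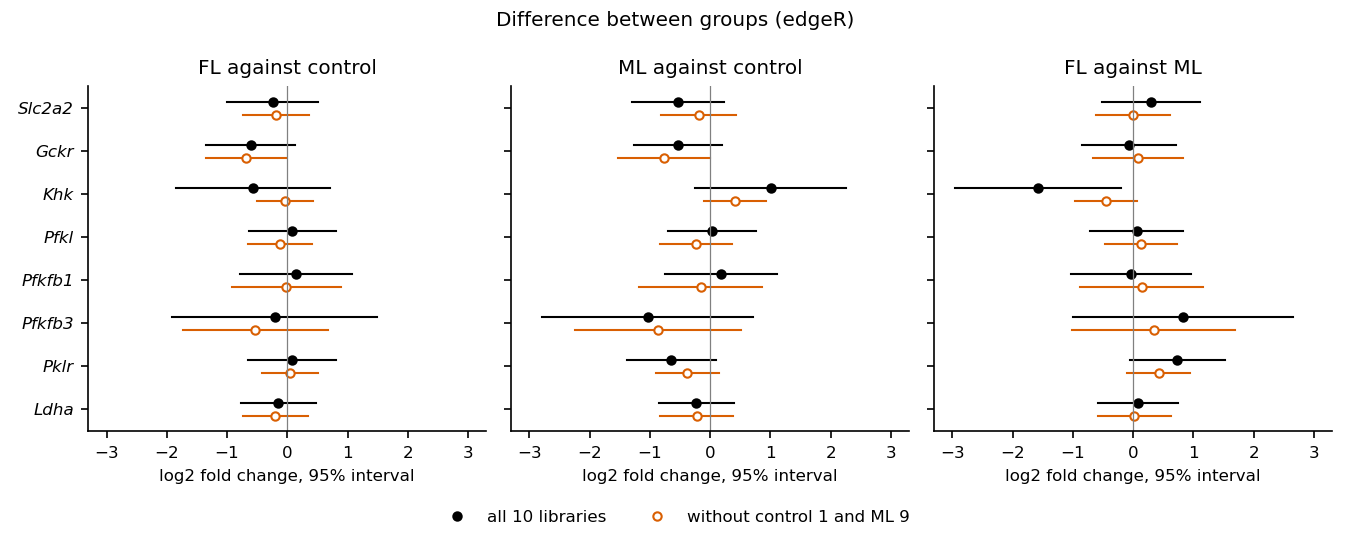
Log2 fold change of each gene with its 95% interval (edgeR) in the 3 comparisons. Filled points use all 10 libraries and open points leave out control 1 and ML 9. Khk in FL against ML has the one interval over all 10 libraries that leaves out 0, and it narrows and includes 0 without the pair of libraries.

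Slc2a2, the hepatic glucose and fructose transporter (ENSMUSG00000027690, GRCm38 chromosome 3, 28697903 to 28731359), had 339, 225, 400.1 and 263 CPM in controls 1 to 4. FL livers had 310, 231 and 236 CPM, and ML livers 264, 115 and 254. The groups overlapped in every comparison, with ML 9 lowest of all. The log2 fold change was -0.25 (SE 0.35; 95% interval -1.005 to 0.51) for FL and -0.54 (SE 0.35; -1.30 to 0.23; edgeR adjusted p 0.417) for ML, each against control. FL against ML was 0.29 (SE 0.37; adjusted p 0.643) and reached 0.00 without control 1 and ML 9, where ML against control was -0.19. Beside Slc2a1, the transporter of most other tissues, Slc2a2 made up 88.4% to 97.8% of the pair's CPM per kb.

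Gckr, the inhibitor of hepatic glucose phosphorylation (ENSMUSG00000059434, chromosome 5, 31297443 to 31327314), had 158, 241, 116 and 264 CPM in controls. FL livers had 116, 161 and 107 CPM, and ML livers 124, 161 and 118. Controls 2 and 4 lay above all 8 other libraries, while controls 1 and 3 lay within the range of FL and ML. The mean for controls was 195 ± 69.6 CPM (SD, n = 4), for FL 128 ± 29.1 CPM (SD, n = 3) and for ML 134 ± 23.4 CPM (SD, n = 3). The log2 fold change was -0.61 (SE 0.34; 95% interval -1.34 to 0.13) for FL and -0.54 (SE 0.34; -1.27 to 0.20) for ML, each against control, with edgeR adjusted p of 1.00 and 0.403. Without control 1 and ML 9 these were -0.69 (SE 0.30, adjusted p 0.712) and -0.77 (SE 0.34, adjusted p 0.179), both at an unadjusted p under 0.05, where 6.81% and 27.5% of all genes also lay. FL and ML differed by -0.07 (SE 0.36; 95% interval -0.85 to 0.71), and by 0.08 (SE 0.33) without the pair.

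Khk, the fructokinase (ENSMUSG00000029162, chromosome 5, 30921431 to 30931248), lies 366194 bases before Gckr on the same strand. It had 1331, 545, 384 and 519 CPM in controls, 374, 494 and 530 in FL and 632, 2906 and 641 in ML. All 3 ML livers lay above all 3 FL livers, as did 15.1% of all genes in that direction, and both control 1 and ML 9 were far above the rest of their groups. The log2 fold change of FL against ML was -1.58 (SE 0.63; 95% interval -2.96 to -0.20), with an edgeR unadjusted p of 0.0284 and an adjusted p of 0.238 (DESeq2 adjusted p 0.061). Without ML 9 it was -0.47, and without both control 1 and ML 9 it was -0.45 (SE 0.23; -0.96 to 0.07; adjusted p 0.301). ML against control was 1.00 (SE 0.57; adjusted p 0.368) with all libraries, 1.53 without control 1, -0.11 without ML 9 and 0.41 (SE 0.23) without both. FL against control was -0.58 (SE 0.58) with all libraries and -0.04 (SE 0.21) without both.

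Pfkl, the liver phosphofructokinase subunit (ENSMUSG00000020277, chromosome 10, 77986947 to 78010083, minus strand), had 16.4, 29.3, 36.9 and 37.2 CPM in controls, 24.4, 42.6 and 28.3 in FL and 27.0, 33.5 and 31.1 in ML. The groups overlapped throughout. Log2 fold changes were 0.08 (SE 0.33) for FL and 0.03 (SE 0.33) for ML, each against control, and 0.06 (SE 0.36; 95% interval -0.72 to 0.84) between FL and ML. The direction was not stable: without control 1 and ML 9 the first of these were -0.12 and -0.24, and FL against ML was 0.13 (SE 0.27). Within the family, Pfkl made up 48.8% ± 3.86 (SD, n = 4) of phosphofructokinase CPM per kb for controls, 55.7% ± 3.74 (SD, n = 3) for FL and 55.1% ± 3.26 (SD, n = 3) for ML. Pfkm, the muscle subunit, made up nearly all the remainder, at 39.1% to 54.5% over the libraries, and Pfkp at most 2.27%. These shares depend on the exon length used, the union over all transcripts of a gene. It is 6675 bases for Pfkl and 3340 for Pfkm. Undivided by length, the mean over the 10 libraries was 30.7 CPM for Pfkl and 13.25 for Pfkm. The lowest Pfkl share, 43.7%, was in control 1, and the shares were not tested.

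Pfkfb1, the liver bifunctional enzyme (ENSMUSG00000025271, chromosome X, 150588229 to 150643878), had 19.2, 50.6, 22.1 and 30.6 CPM in controls, 15.96, 49.95 and 35.9 in FL and 29.6, 42.6 and 31.8 in ML. The highest control was 2.64 times the lowest and the highest FL liver 3.13 times the lowest, and ML lay inside both ranges. The log2 fold changes were 0.15 (SE 0.43; 95% interval -0.78 to 1.08) in FL, 0.18 (SE 0.43) in ML against control and -0.03 (SE 0.46) between FL and ML. They were -0.015 (SE 0.41), -0.16 (SE 0.45) and 0.14 (SE 0.45) without control 1 and ML 9. Apex2, on the opposite strand, shares 3.06% of the exon bases of Pfkfb1, and the strand setting of the counting is not given in the sources used here.

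Pfkfb3, the inducible form (ENSMUSG00000026773, chromosome 2, 11471433 to 11554077, minus strand), was the most variable of the 8. It had 12.0, 90.4, 29.9 and 81.3 CPM in controls, 85.7, 32.3 and 20.5 in FL and 28.6, 4.83 and 44.4 in ML. High and low libraries occurred in both control and FL, so the groups overlapped. Its highest level was 18.7 times its lowest over the 10 libraries, against 1.75 times for Ldha, and 4.41 times without control 1 and ML 9. Over those 8 libraries its SD of log2 CPM was 0.84, larger than that of 94.7% of 8911 genes, where Pfkfb1 had 0.56, Gckr 0.51 and the 5 others 0.27 to 0.29 beside a median of 0.37. The log2 fold changes were -0.21 (SE 0.78) for FL and -1.04 (SE 0.80; 95% interval -2.79 to 0.71) for ML, each against control, and 0.83 (SE 0.84; -1.004 to 2.66) between FL and ML. Leaving out single libraries moved these values. Without FL 5, FL against ML was 0.02 and FL against control -1.02, and without ML 10, FL against ML was 1.46. ML against control was -0.54 without ML 9 and -1.67 without ML 10. With both control 1 and ML 9 left out, the 3 values were -0.53 (SE 0.54), -0.87 (SE 0.62) and 0.34 (SE 0.61).

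The balance of the PFKFB enzymes varied widely between livers of 1 group. Per kb, Pfkfb3 was 2.85 times Pfkfb1 in FL 5 and 1.41 times in control 4. It was 0.95 and 0.72 times in controls 2 and 3 and 0.74 times in ML 10. It was lower in FL 6 (0.34), FL 7 (0.30), ML 8 (0.51), control 1 (0.33) and ML 9 (0.06). Pfkfb1 made up 51.7% ± 12.5 (SD, n = 4) of the family for controls, 54.1% ± 27.5 (SD, n = 3) for FL and 68.4% ± 19.4 (SD, n = 3) for ML. Pfkfb2, the heart form, made up 1.77% to 12.9% and Pfkfb4 at most 2.28%.

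**Figure D3:**
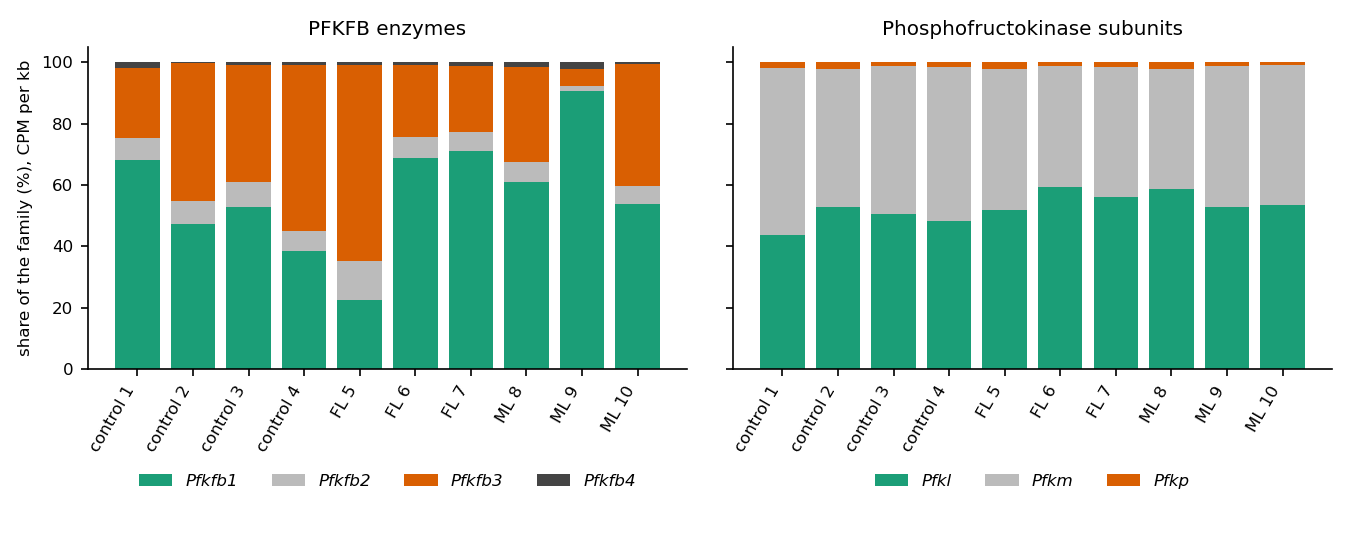
Share of each family's summed CPM per kb taken by each gene, per library, for the PFKFB enzymes (left) and the phosphofructokinase subunits (right). Bars are stacked to 100%. The Pfkfb3 share runs from 5.45% in ML 9 to 63.9% in FL 5, while the Pfkl share stays between 43.7% and 59.2%.

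Pklr, liver and erythrocyte pyruvate kinase (ENSMUSG00000041237, chromosome 3, 89136142 to 89146784), had 168, 160, 176 and 242 CPM in controls. FL livers had 222, 194 and 177 CPM, and ML livers 159.6, 62.3 and 135. All 3 ML livers lay below every control and FL liver, ML 8 by less than 1 CPM under the lowest control (159.6 against 160.4). Such a gap below control was seen in 2.86% of all genes, and FL lay above ML in 16.6%. The mean for controls was 186 ± 37.3 CPM (SD, n = 4), for FL 198 ± 22.7 CPM (SD, n = 3) and for ML 119 ± 50.7 CPM (SD, n = 3). The log2 fold change was -0.65 (SE 0.34; 95% interval -1.39 to 0.10; edgeR adjusted p 0.343) in ML against control and 0.73 (SE 0.36; -0.06 to 1.52; adjusted p 0.264) in FL against ML. FL against control was 0.08 (SE 0.34), or 0.04 (SE 0.21) without control 1 and ML 9. Without control 1 and ML 9 the ML differences shrank to -0.38 (SE 0.23; adjusted p 0.308) and 0.42 (SE 0.23; adjusted p 0.331). Pklr made up 93.9% to 96.0% of pyruvate kinase CPM per kb, the rest being Pkm, except for 75% in ML 9. Hcn3, on the opposite strand, shares 22% of the exon bases of Pklr, and its reads could enter the count. This is the gene whose printed upstream sequence holds the carbohydrate response element.

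Ldha, the A subunit of lactate dehydrogenase (ENSMUSG00000063229, chromosome 7, 46841475 to 46855627), had the smallest ratio of highest to lowest level over the 10 libraries. It had 681, 957.5, 850.0 and 610.1 CPM in controls, 715, 614 and 765 in FL and 547, 604 and 831 in ML. The groups overlapped in every comparison. Log2 fold changes were -0.15 (SE 0.29; 95% interval -0.77 to 0.47) in FL, -0.23 (SE 0.29; adjusted p 0.675) in ML against control and 0.08 (SE 0.31; adjusted p 0.891) between FL and ML. With control 1 and ML 9 left out they were -0.20 (SE 0.24), -0.22 (SE 0.27) and 0.02 (SE 0.27). Ldha made up 95.1% to 99.6% of the CPM per kb it shares with Ldhb. Its printed sequence, like that of Pfkfb3, holds ACGTG.

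The deviation of each gene in the 2 libraries was set beside that of all tested genes of like exon length. In ML 9, Khk (1797 bases of exon) lay 2.52 above the mean of the 8 other libraries on the log2 scale, where genes of 1000 to 2000 bases had a median of 0.99 and an upper quartile of 1.89. Pfkfb3 (7561 bases) lay at -3.19 and Pklr (3236 bases) at -1.53, below the lower quartiles of -1.40 for genes of 6000 to 8000 bases and -0.74 for genes of 3000 to 4000. Slc2a2 (5755 bases, -1.22), Pfkl (6675 bases, 0.08) and Pfkfb1 (4017 bases, 0.44) lay close to a quartile of their length, at -1.10, 0.06 and 0.39. Gckr (0.14) and Ldha (-0.26) lay between the quartiles of theirs, -1.10 to 0.39 and -0.74 to 0.81. In control 1, Khk was at 1.39, Pfkfb3 at -1.89 and Pfkl at -0.95, beside medians of 0.44, -0.35 and -0.35. With the trend over exon length and GC removed, the Khk difference of FL against ML was -0.97 (SE 0.48, adjusted p 0.331). With a surrogate variable it was 0.12 (SE 0.37).

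**Figure D4:**
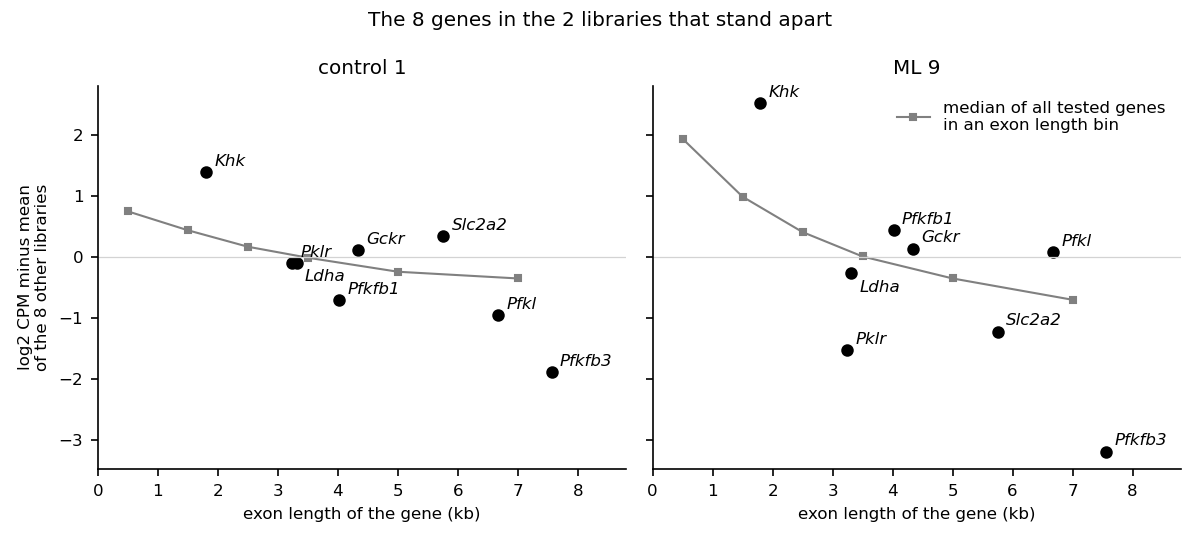
Deviation of each of the 8 genes in control 1 (left) and ML 9 (right) from its mean over the 8 other libraries (log2 CPM), against exon length in kb. Grey squares are medians of all tested genes in 6 length bins, drawn at the bin centre, and genes of 8000 bases and more are not drawn. In ML 9, Khk lies at 2.52 and Pfkfb3 at -3.19, both farther from 0 than the median of their bin.

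Markers of other cell types differed between libraries and, for some lists, between groups. In ML 9 the 5 skeletal muscle markers summed to 351 CPM against at most 1.08 elsewhere. Eno3, the muscle enolase, had 55.0 CPM there against 1.97 to 5.20, Slc2a4 3.33 against 0.157 to 1.43, Ldhb 14.7 against 1.48 to 2.74 and Pkm 32.0 against 9.24 to 17.5. Other paralogs expressed in muscle or heart were not highest in ML 9. Pfkm had 14.5 CPM against 8.98 to 19.5 elsewhere and Hk2 1.11 against 0.456 to 2.44. Pfkfb2, at 3.70 to 16.6 elsewhere, had its lowest level there. Hk2 and Pfkfb2 rest on 17 and 23 counts in ML 9 and have 5969 and 7254 bases of exon. Genes of 4000 to 6000 and of 6000 to 8000 bases had median deviations of -0.35 and -0.70 in ML 9. For genes of 3000 to 4000 bases, such as Pfkm at 3340, the median was 0.01. Kupffer cell and macrophage markers summed to 903 CPM in ML 9, 395 in control 1 and at most 307 in FL. Markers of erythroid cells, which also express Pklr, summed to 313 to 2110 CPM in ML, above FL at 127 to 249, with controls at 184 to 626. T and NK cell markers summed to 2.31 to 9.52 CPM in ML, above controls at 1.53 to 2.11 and FL at 0.926 to 1.80. Stellate cell markers summed to 152 to 170 CPM in FL, below controls at 173 to 265 and ML at 176 to 400. None of the tested markers in the 12 lists passed in any comparison. The filter on low counts left only 1 of 5 skeletal muscle, 1 of 6 pancreatic, 2 of 4 adipocyte and 3 of 5 neutrophil markers to test. A transcript high in ML 9 alone could thus go untested. The part of these cells in the member values was not tested, and the Khk and Pklr differences are given above without both libraries.

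Other genes of the pathway were read from 6 lists, none of whose tested genes passed edgeR's test. Of 12 hexose transporters and hexokinases tested (14 listed), 5 lay above 0 and 7 below in FL against control (58.3% below, beside 55.3% of all genes). The median log2 fold change was -0.03. Medians were -0.14 in ML against control and 0.03 in FL against ML. Hk2, a hexokinase scarce in liver, was at 0.72 (SE 0.50) in FL against control and 0.37 without FL 5. Adpgk, an ADP-dependent hexose kinase, was higher in all FL than in all ML livers at 0.47 (SE 0.35), and at 0.25 without ML 9. The gap was narrow, with 17.79 CPM in FL 7 and 17.52 in ML 10. It was the 1 gene of the 12 with FL wholly above ML, as were 16.6% of all genes. Slc2a4, the insulin-responsive transporter of muscle and fat, was at 1.19 (SE 0.90) in ML against control, 1.97 without control 1 and -0.53 without ML 9.

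Of 24 enzymes and carriers of glycolysis, lactate and pyruvate tested (25 listed), 1, 3 and 4 had an unadjusted p under 0.05 in the 3 comparisons (4.17%, 12.5% and 16.7%, beside 3.53%, 16.1% and 20% of all genes). Their medians were -0.03, 0.11 and -0.11, and -0.04, -0.10 and 0.15 without control 1 and ML 9. Mpc1 and Mpc2, which form the mitochondrial pyruvate carrier downstream of Pklr, were at -0.93 (SE 0.49) and -1.95 (SE 0.61) in FL against ML. Their edgeR adjusted p was 0.282 and 0.238. For both, all FL livers lay below all ML livers, as for 15.1% of all genes. Mpc2 had 116, 168 and 211 CPM in FL and 261, 1194 and 460.2 in ML, and 493 in control 1 against 148 to 179 in the other controls. Its FL against ML value was -1.14 without ML 9 and -0.42 with a surrogate variable (an estimated hidden factor) in the fit. Slc16a7, a pyruvate and lactate transporter, was lower in all FL than in all control livers at -0.73 (SE 0.33, adjusted p 1.00). Such a gap was seen in 2.92% of all genes. Eno3 and Ldhb were at 2.53 (SE 0.89) and 1.42 (SE 0.59) in ML against control, and at -0.26 and -0.006 without ML 9.

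Of the 8 fructose and polyol genes, all tested, 0, 0 and 2 had an unadjusted p under 0.05 (0%, 0% and 25%). The shares of all genes were 3.53%, 16.1% and 20%, and the list medians were 0.04, 0.40 and -0.28. Leaving out control 1 and ML 9 gave 0, 2 and 2 (0%, 25% and 25%, beside 6.81%, 27.5% and 19.4% of all genes). The list medians were then 0.09, 0.14 and -0.10. Tkfc, which phosphorylates the glyceraldehyde released after the Khk and aldolase steps, went the other way from Khk between FL and ML. It had 636, 507 and 461 CPM in FL and 322, 231 and 242 in ML, which gives 1.01 (SE 0.32; edgeR adjusted p 0.238) on the log2 scale, and DESeq2 called it. Akr1a1, an aldehyde reductase, was at -0.96 (SE 0.38) in FL against ML with ML 9 at 1176 CPM, and at -0.53 without that library. Glyctk, which acts on glycerate from fructose, was at 0.50 (SE 0.30) for FL and 0.40 (SE 0.30) for ML, each against control.

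The MLXIPL (carbohydrate response) list, which covers Pklr's regulator and its other targets, had 18 genes, all tested. Against control, 15 were below 0 in FL and 15 in ML (83.3% each, beside 55.3% and 52.9% of all genes), with medians of -0.32 and -0.87. At an unadjusted p under 0.05 were 5 in FL and 8 in ML (27.8% and 44.4%, beside 3.53% and 16.1% of all genes). Without control 1 and ML 9, 13 and 16 were below 0 (72.2% and 88.9%, beside 50.4% and 52.9% of all genes), with medians of -0.52 and -0.70. In FL against ML, 10 were below 0 (55.6%, beside 47.9% of all genes) and the median was -0.12. An unadjusted p under 0.05 was seen there for 7 (38.9%, beside 20% of all genes). Txnip, an arrestin induced by glucose, was at -1.66 (SE 0.43; edgeR adjusted p 0.703) in FL, where 3 livers had 35.7 to 53.2 CPM against 87.6 to 199 in controls. It was at -0.30 (SE 0.41) in ML. Me1, which makes NADPH for lipid synthesis, was at -1.46 (SE 0.38) in FL and -1.11 (SE 0.38) in ML, the latter at -0.68 without control 1 and ML 9. Fasn, fatty acid synthase, was at -0.26 (SE 0.52) in FL and -2.30 (SE 0.56; adjusted p 0.301) in ML, with 32.6 to 125 CPM in ML below the 216 to 619 of controls. ML lay wholly below control in 2.86% of all genes. Acacb, an acetyl-CoA carboxylase, was at -0.33 (SE 0.49) in FL and -2.14 (SE 0.52; adjusted p 0.301) in ML. DESeq2 called Txnip in FL against control and Fasn and Acacb in ML against control. Some genes stand in more than 1 list, Tkfc in this list and in that of fructose genes.

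Of 22 HIF1 genes tested (23 listed), 14 lay below 0 in FL and 16 in ML against control, with medians of -0.11 and -0.20. That is 63.6% and 72.7%, beside 55.3% and 52.9% of all genes. In FL against ML, 13 lay above 0, with a median of 0.14, and 9 lay below (40.9%, beside 47.9% of all genes). HIF1 genes at an unadjusted p under 0.05 were 2, 3 and 5 (9.09%, 13.6% and 22.7%, beside 3.53%, 16.1% and 20% of all genes). With control 1 and ML 9 left out, 16, 15 and 11 lay below 0 (72.7%, 68.2% and 50%, beside 50.4%, 52.9% and 46.3% of all genes). The medians were then -0.10, -0.19 and 0.01. The unadjusted counts were 2, 8 and 6 (9.09%, 36.4% and 27.3%, beside 6.81%, 27.5% and 19.4% of all genes). Ndrg1, a stress-induced gene, had 3.32 to 5.45 CPM in FL against 7.58 to 15.2 in controls and 8.09 to 12.3 in ML. Its log2 fold change was -1.46 (SE 0.36; edgeR adjusted p 0.611; called by DESeq2) in FL against control. Ddit4, an inhibitor of mTORC1, was at -2.45 (SE 0.86) in FL and -1.78 in ML, each against control. Without control 2 these were -1.64 and -0.95. Control 2 had 111 CPM of Ddit4, beside 16.5 to 39.9 in the other controls. In ML against control, Vegfa, an angiogenic ligand, was at -1.02 (SE 0.40) and Ankrd37 went the other way at 1.44 (SE 0.57). Ankrd37 was at -1.64 (SE 0.62) in FL against ML, on levels of 0.178 to 2.09 CPM. Bnip3, a mitophagy receptor, was at -1.74 (SE 0.59) in FL against ML.

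Of the 12 hepatocyte transcription factors, all tested, 11 lay above 0 in FL and 8 in ML against control, with medians of 0.34 and 0.55. Between FL and ML, 7 lay above 0, with a median of 0.25. The shares below 0 in the 3 comparisons were 8.33%, 33.3% and 41.7%, beside 55.3%, 52.9% and 47.9% of all genes. The medians of the list were 0.38, 0.48 and -0.02 without control 1 and ML 9. Factors at an unadjusted p under 0.05 were 1, 4 and 3 (8.33%, 33.3% and 25%, beside 3.53%, 16.1% and 20% of all genes). Foxa3, a forkhead factor of hepatocytes, had 81.0 to 175 CPM in FL and 76.4 to 111 in ML, above all controls at 36.8 to 70.3. FL lay wholly above control in 2.79% of all genes, and ML in 2.17%. The log2 fold change of Foxa3 was 1.21 (SE 0.35; edgeR adjusted p 0.813; 0.76 without FL 5) in FL and 0.96 (SE 0.35; adjusted p 0.301) in ML. Nr1h3, the oxysterol receptor LXRα, was at 1.19 (SE 0.41) in ML with 415.5 CPM in ML 9, and at 0.43 without that library. Onecut1, a cut-homeodomain factor of hepatocytes, was at 1.38 (SE 0.72) in FL against control, and at 0.71 without FL 5, the library with its highest level.

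**Figure D5:**
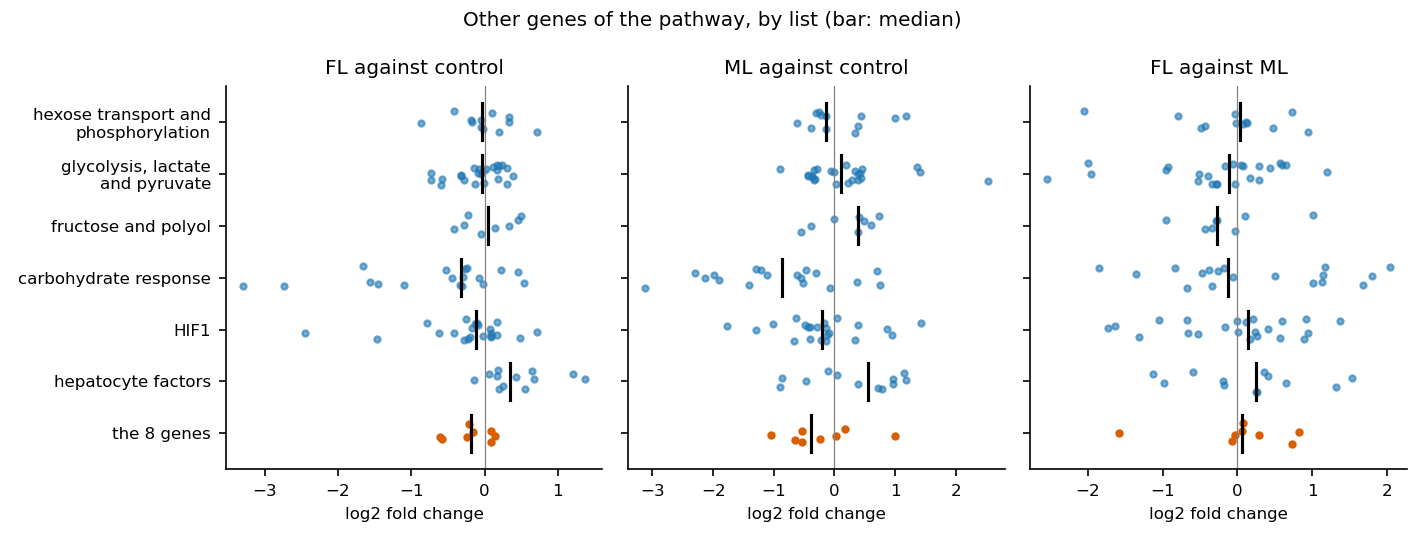
Log2 fold change (edgeR) of every tested gene in 6 lists of pathway genes and of the 8 genes themselves, in the 3 comparisons over all 10 libraries; bars are list medians and vertical position within a list has no meaning. The carbohydrate response list has medians of -0.32 in FL and -0.87 in ML against control, and the 8 genes have medians of -0.18, -0.38 and 0.07.

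Genes whose pattern over the libraries was most like each member's were found among 8655 genes with a mean of at least 5 CPM, by Pearson's r of log2 CPM, with r over the 8 libraries without control 1 and ML 9 beside it. The libraries share depth and length effects, so these values are descriptions. Khk was most like Adprhl2, Dbi and Gpihbp1, each at r of 0.99 over 10 libraries and 0.87 to 0.91 over 8. Pfkfb3 was most like Mbd1, Zfp292 and its own paralog Pfkfb2, each at 0.95, and 0.92, 0.90 and 0.86 over 8. Gckr was most like Zpr1, Phf1 and Neil1, at 0.90 over 10 and 0.91 to 0.93 over 8. Pklr was most like Dnmt1, Pcbp1 and Impa1 (0.97, 0.94 and 0.94; 0.86, 0.79 and 0.75 over 8), and Slc2a2 like Appl1, Arhgap12 and Rassf3 (0.95, 0.95 and 0.94; 0.82, 0.80 and 0.74 over 8). Over 8 libraries these were no longer the nearest genes. Counting the member itself, 55, 239 and 403 genes had a higher r with Pklr than Dnmt1, Pcbp1 and Impa1 did. On the same count, 45, 50 and 118 had a higher r with Slc2a2 than its 3 did. For the 6 other members, 3 to 164 genes, again with the member itself, were nearer than those named. Pfkfb1 was most like Asl, a urea cycle enzyme, Nr1i2, the xenobiotic receptor PXR, and Orm3 (0.89, 0.87 and 0.87; 0.94, 0.85 and 0.91 over 8). Pfkl was most like Ptms, Dym and Klhdc3 (0.95, 0.92 and 0.91; 0.91, 0.87 and 0.77 over 8), the 164 being for Klhdc3. Ldha was most like Strbp, B3galt1 and Tsc22d2 (0.89, 0.88 and 0.85; 0.91, 0.89 and 0.87 over 8).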

How the data were processed

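Polyadenylated liver RNA was sequenced as paired ends from directional libraries, per the labels' protocols. The table deposited by the authors gives raw counts, 1 row per gene and 1 column per library. STAR and featureCounts were used on the GRCm38 build, per the submitters' processing notes. Tool versions, annotation release and strand setting were not given in the sources used here. Of 46071 rows, 45229 matched GENCODE M21, which gave symbols, positions and exon length. Exon length is the union of the exons of all transcripts of a gene, and values per kb depend on it. Tests used edgeR 4.0.16 in R 4.3.3. Libraries were scaled by TMM, genes filtered by filterByExpr (minimum count 10), and a two-sided quasi-likelihood F test with robust dispersion run over all 10 libraries. It covered 14820 genes with 7 residual degrees of freedom and a common biological coefficient of variation of 0.448. P-values were adjusted by Benjamini-Hochberg over all genes, and a gene passed under 0.05. SE is the log2 fold change divided by the square root of F. Alternatives were DESeq2 1.42.0, limma-voom 3.58.1 with quality weights, other size factors, no filter, only the groups compared, a surrogate variable (sva 3.50.0), removal of a length and GC trend, and leaving out libraries. From each pathway list, the 2 tested genes with the lowest p in each comparison were named, and the 3 genes most like each member. The 8 genes, the lists and the alternatives were chosen with earlier results of these data known. Values for some genes of the lists are not reported here. Likeness used log2 CPM with a prior count of 2.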

Additional observations from a re-analysis of the deposited data

Results flagged for a closer look

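Khk in control 1, at 1331 CPM, stood far above the other controls at 384 to 545. The gap to the nearest control was 0.83 of the whole range of the 4 controls, just above Dixon's critical value. The same library was as far out for 3 other genes. Mpc1 had 175 CPM beside 51.2 to 53.2 (gap 0.984 of the range), Mpc2 493 beside 148 to 179 (0.911) and Akr1a1 666 beside 372 to 405.4 (0.887). Of 31 genes checked in the controls 4 met this rule, all in control 1. Chance gives about 1 in 20 for independent groups of normally distributed values. These genes share the same 4 libraries, so the count cannot be set against that rate. Control 1 has the fewest counts of the 10 libraries and an excess of short transcripts, whose part in these values was not tested. Exon length is 1797 bases for Khk, 2082 for Mpc1, 2750 for Akr1a1 and 7344 for Mpc2. Control 1 had a median log2 deviation of 0.44 for all genes of 1000 to 2000 bases. It was 0.17 for genes of 2000 to 3000 and -0.35 for genes of 6000 to 8000.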

How the results depend on the processing

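Under no alternative run was any of the 8 genes called, and no cause of a change between alternatives was tested. Of 192 member values under other settings 167 kept their direction, as did 220 of 240 with 1 library left out. Of the values of named pathway genes, 509 of 552 and 658 of 690 kept direction and side of the threshold. The exceptions with a new call were all DESeq2's: Txnip and Ndrg1 in FL against control, Fasn and Acacb in ML against control, and Mpc2, Tkfc, Txnip, Fasn and Bnip3 in FL against ML. Pfkfb3 in ML 9 rests on 74 counts, and 3 or 4 libraries a group limit what could be called. No paired analysis was possible because replicate numbers run from 1 to 10 and no number is shared between groups.

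Over all genes, the number called in FL against control, ML against control and FL against ML was 2, 0 and 1 in the main analysis. It was 52, 46 and 248 with DESeq2. It was 4 and 4 with limma-voom in FL against control and FL against ML. With no filter on low counts it was 1, 3 and 2. It was 1 and 0 in FL against control and FL against ML with the length and GC trend removed, and 0 in FL against ML with only the groups compared. With 1 library left out it ran from 0 to 3, 0 to 1 and 0 to 2. Members at an unadjusted p under 0.05 numbered 1 (Gckr), 2 (Gckr and Pklr) and 0 with limma-voom. They numbered 1 (Gckr), 1 (Gckr) and 0 without control 1 and ML 9, and 1 (Pfkl) in ML against control with the trend removed. With 1 library left out they ran from 0 to 1, 0 to 2 and 0 to 2. Of all genes, 3.53%, 16.1% and 20% lay under that p in the main analysis. Without control 1 and ML 9 it was 6.81%, 27.5% and 19.4%. The share of all genes under the other settings is not given here, so those member counts have no background beside them.

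Log2 fold changes that turned direction are grouped by setting. With a surrogate variable these were, in FL against control, Pklr (-0.034), Eno3 (0.038) and Ankrd37 (0.14). In ML against control they were Khk (-0.31), Pfkfb3 (0.66), Hk2 (0.16), Adpgk (0.32), Slc2a4 (-0.72), Mpc1 (-0.094), Eno3 (-0.18) and Ldhb (-0.057). In FL against ML they were Khk (0.12), Pfkl (-0.24), Pfkfb3 (-1.16), Ldha (-0.051), Adpgk (-0.044), Slc2a4 (0.59), Eno3 (0.22), Glyctk (-0.25), Foxa3 (-0.033) and Onecut1 (-0.94). Without control 1 and ML 9 they were Pfkl (-0.12), Pfkfb1 (-0.015), Akr1a1 (0.018) and Ankrd37 (0.30) in FL against control, and Pfkl (-0.24), Pfkfb1 (-0.16) and Eno3 (-0.35) in ML against control. Between FL and ML they were Slc2a2 (-0.002), Gckr (0.080), Pfkfb1 (0.14), Eno3 (0.25), Glyctk (-0.048) and Onecut1 (-0.047).

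With the length and GC trend removed they were Pfkl (-0.044) and Eno3 (0.006) in FL against control, and Hk2 (0.16), Adpgk (0.32), Mpc1 (-0.038) and Ndrg1 (0.14) in ML against control. Between FL and ML they were Pfkl (-0.60), Pfkfb1 (0.014), Adpgk (-0.054) and Glyctk (-0.21). With limma-voom they were Pfkl (-0.15), Pfkfb1 (-0.009), Pklr (-0.027), Slc2a4 (0.016) and Ankrd37 (0.17) in FL against control, and Pfkl (-0.18), Eno3 (-0.13) and Ndrg1 (0.093) in ML against control. In FL against ML they were Gckr (0.013), Ldha (-0.017), Glyctk (-0.010) and Onecut1 (-0.25). With no filter they were Eno3 (0.013) in FL and Pfkl (-0.003) in ML against control, and Pfkfb1 (0.039) in FL against ML.

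Leaving out 1 library turned the direction of some values, whose ranges follow. In FL against control they were Pfkl (-0.18 to 0.24), Pfkfb1 (-0.24 to 0.50), Pfkfb3 (-1.02 to 0.17), Pklr (-0.003 to 0.23), Eno3 (-0.40 to 0.24), Akr1a1 (-0.31 to 0.014), Fasn (-0.69 to 0.14), Acacb (-0.56 to 0.19), Vegfa (-0.53 to 0.14), Ankrd37 (-0.50 to 0.30) and Nr1h3 (-0.074 to 0.22). In ML against control they were Khk (-0.11 to 1.53), Pfkl (-0.17 to 0.14), Hk2 (-0.45 to 0.14), Adpgk (-0.43 to 0.081), Slc2a4 (-0.53 to 1.97), Slc16a7 (-0.12 to 0.45), Mpc1 (-0.001 to 0.87), Eno3 (-0.26 to 3.06), Ldhb (-0.006 to 1.82), Txnip (-0.54 to 0.047) and Ndrg1 (-0.30 to 0.023). In FL against ML they were Slc2a2 (-0.019 to 0.49), Gckr (-0.26 to 0.062), Pfkl (-0.20 to 0.22), Pfkfb1 (-0.41 to 0.32), Ldha (-0.036 to 0.29), Eno3 (-3.07 to 0.23), Glyctk (-0.065 to 0.23), Ddit4 (-1.30 to 0.72), Foxa3 (-0.20 to 0.45) and Onecut1 (-0.26 to 0.85).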
